A study of Mus musculus with 92 samples.

Results

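ER-Hoxb8 cells that had spent 4 days in M-CSF medium were compared with monocytes taken from mouse bone marrow, by RNA sequencing of bulk cells. The libraries were chosen by their titles: 3 libraries of ER-Hoxb8 cells grown for 4 days and 3 of marrow monocytes, which make 6 of the 92 libraries of the series. The series profiled mouse myeloid cells from culture, marrow or brain, with or without gene editing, and set a conditionally immortalized progenitor line beside the marrow cells it stands in for. Within it, 12 libraries were normalized together, namely these 6, 3 of marrow progenitors and 3 of ER-Hoxb8 progenitors at day 0. The comparison asks how far the line, part of the way through differentiation, resembles the marrow cell that lies between progenitor and macrophage.

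The marrow monocytes came from wild-type FVB mice. Whole marrow from femurs and tibias was cleared of red cells by lysis and enriched for monocytes with a magnetic isolation kit. Other marrow cells could therefore remain in the sample. The ER-Hoxb8 cells came from FVB mice with a Cas9 allele, and their labels do not say whether the mice were heterozygous for it. These cells carry a retrovirus (MSCVneo-HA-ER-Hoxb8) that encodes Hoxb8 joined to an estrogen receptor domain. They were held as progenitors in RPMI medium with beta-estradiol and GM-CSF, and were then moved to DMEM with serum and murine M-CSF without the estrogen. No guide RNA was given to either group, and the line had been selected with Geneticin after the virus was added. The labels state neither the age nor the sex of the mice, and the study describes its replicates as biological ones. RNA extraction differed in the study between cultured cells and cells sorted from animals, and the labels do not say which route the monocytes took or whether they were sorted. Culture, medium, the Cas9 allele and the virus, and possibly the extraction, differed together between the groups, so they cannot be told apart.

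As background, classical monocytes leave the marrow through the chemokine receptor CCR2, carry LY6C, and turn into macrophages in tissues under M-CSF, the ligand of CSF1R. Maturing macrophages switch off monocyte homing genes and build up lysosomes, scavenger receptors and lipid-handling proteins. Hoxb8 keeps myeloid progenitors dividing. Joined to the receptor domain it is active only while estrogen is present, and taking the estrogen away shuts it off and lets the cells mature.

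Depth was estimated from the spacing of the deposited values and came to 41.4, 43.0 and 42.9 M counts for monocyte libraries 1 to 3 and 44.5, 39.9 and 35.8 M counts for day 4 libraries 1 to 3. The groups overlapped in depth (means 42.4 and 40.1 M counts, two-sided exact permutation p = 0.5, n = 3 against 3; the smallest p this design can give is 0.1). The 10 most abundant genes took 9.69%, 9.71% and 10.4% of the summed CPM (counts scaled to library size) in the monocytes and 22.8%, 20.9% and 16.2% in the day 4 cells, with no overlap (exact permutation p = 0.1). Lyz2, which encodes lysozyme, was the most abundant gene of every monocyte library, and Ftl1, the ferritin light chain, of every day 4 library. A level below is a deposited log2 CPM, and levels are given for libraries 1, 2 and 3 in that order, or as a range. Day 4 libraries 1 to 3 are also called lines 1 to 3 for short, although their labels give replicate numbers and do not name the line. In the 12 libraries the lowest deposited value was -4.34, and 3 counts, the floor used for genes hardly detected, corresponded to 0.0625 to 0.0645 CPM in the monocytes and 0.0777 to 0.0905 CPM in the day 4 cells.

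Across 12134 genes the correlation of log2 CPM was 0.926 to 0.945 between monocyte libraries, 0.942 to 0.958 between day 4 libraries and 0.756 to 0.827 between the groups; these r values are across genes, which are not independent replicates, and carry no test. All 6 libraries were thus nearer to their own group than to the other. Outside the comparison, 2 of the ER-Hoxb8 progenitor libraries stood apart. The library labelled ER-Hoxb8 progenitors replicate 2 correlated at 0.984 with day 4 replicate 2, the highest of all 66 pairs, and at 0.891 and 0.847 with the other day 0 libraries. Its level of Trem2, a macrophage receptor, was 9.73, against 3.61 and 1.59 in the other ER-Hoxb8 progenitors and 9.82 in day 4 replicate 2. The data thus go against its label, and the main counts and medians below that use the progenitors are given with and without it. Counts and medians under other settings include it unless stated. The comparison of day 4 cells with monocytes does not use it. Its near twin, day 4 replicate 2, fitted with the other day 4 libraries, and without that replicate the test described below gave 1352 genes in place of 1308 when the same genes were tested. In ER-Hoxb8 progenitors replicate 1, mitotic genes took 0.0240% of summed CPM, against 0.256% and 0.535% in replicates 2 and 3 and 0.715% to 0.753% in the marrow progenitors. Lysosomal genes took 4.67% of it, against 0.897% in replicate 3, and Gpnmb, a macrophage gene, was at 12.98 against 7.25.

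**Figure D1:**
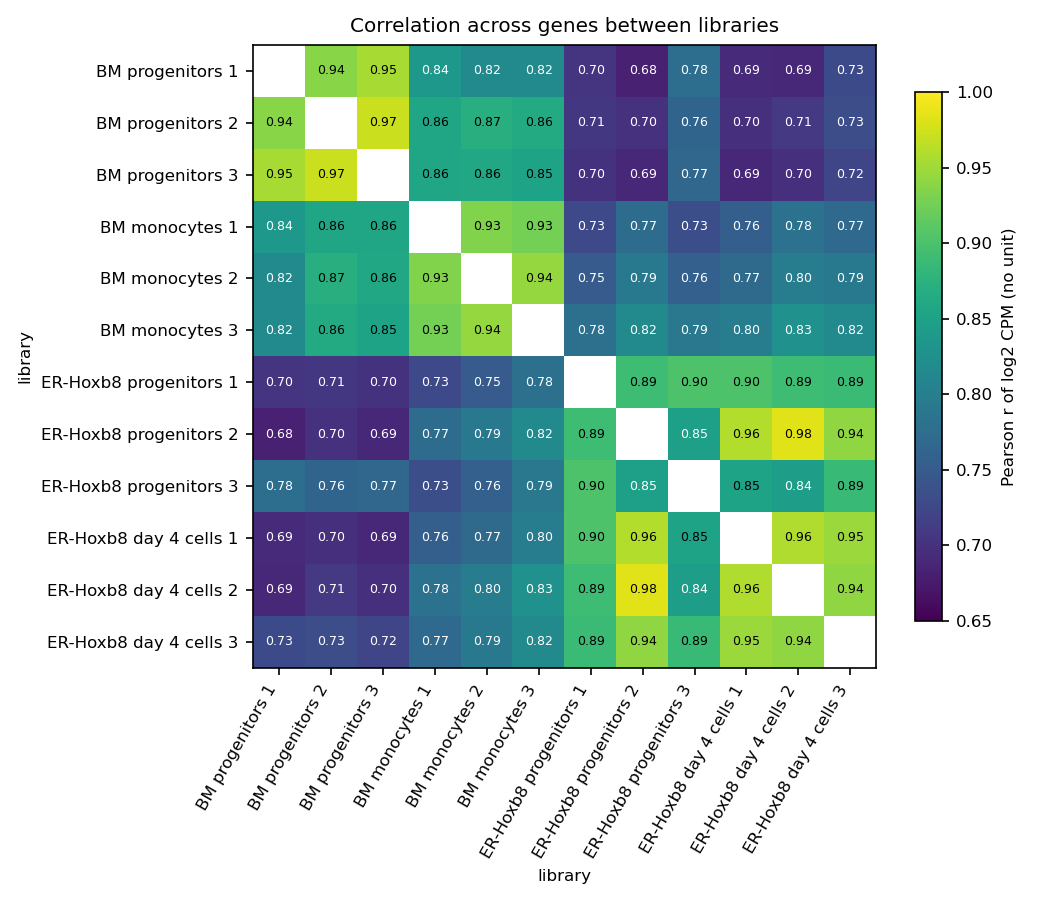
Pearson correlation of log2 CPM across 12134 genes for each pair of the 12 libraries normalized together, by group and replicate. Monocyte libraries reach at most 0.827 with day 4 libraries, and ER-Hoxb8 progenitors replicate 2 reaches 0.984 with day 4 replicate 2.

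The labels were then checked against marker genes. Csf1r, the M-CSF receptor, was at 9.62, 9.30 and 8.85 in the monocytes and 10.22, 10.40 and 9.79 in the day 4 cells, and Ptprc, the leukocyte marker CD45, was at 9.96, 9.82 and 9.37 and 9.40, 9.57 and 8.92. Both groups thus held myeloid cells with the receptor for M-CSF. Of the defining monocyte genes, Ly6c2 was at 10.27, 10.49 and 11.04 in the monocytes, Ccr2 at 10.54, 9.97 and 9.83 and F13a1, a coagulation factor of monocytes, at 13.04, 12.77 and 12.52. The monocyte label therefore had its markers, but the libraries also carried genes of other marrow cells.

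Lists of markers for 9 other kinds of marrow cell, 130 genes in the table, took 1.83%, 2.84% and 2.41% of summed CPM in the monocytes and 0.0487%, 0.0882% and 0.0416% in the day 4 cells (means 2.36% and 0.0595%, SD 0.507 and 0.0251, exact permutation p = 0.1, n = 3 against 3). Every monocyte library lay above every day 4 library. Neutrophil granule genes were the largest list in every monocyte library, at 0.881%, 2.05% and 1.70% against 0.0126%, 0.0581% and 0.0190%. Basophil and mast cell genes took 0.451%, 0.464% and 0.576% of monocyte CPM, led by Prss34, and 0.00126%, 0.00154% and 0.00132% of day 4 CPM. Platelet genes, led by Ppbp, took 0.313%, 0.164% and 0.0173%, so that monocyte library 3 was low and library 1 high, against at most 0.000546% in the day 4 cells. Erythroid genes, led by Car2, took 0.0849%, 0.0626% and 0.0284% against at most 0.00179%. The remaining lists, for stem and progenitor cells, dendritic cells, T and NK cells, eosinophils and the B lineage, each took under 0.05% of any of the 6 libraries, led in the monocytes by Cd34, Cd209a, Nkg7, Prg2 and Cd79b in that order. In the day 4 cells, defining markers at or under the floor in all 3 libraries were Ly6g for neutrophils, Pax5 for B cells, Cd3e and Trbc1 for T cells, and Gp5 for platelets. In bulk RNA, fewer cells of a type and less RNA per cell cannot be told apart, and the part of these cells in the results below was not tested.

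**Figure D2:**
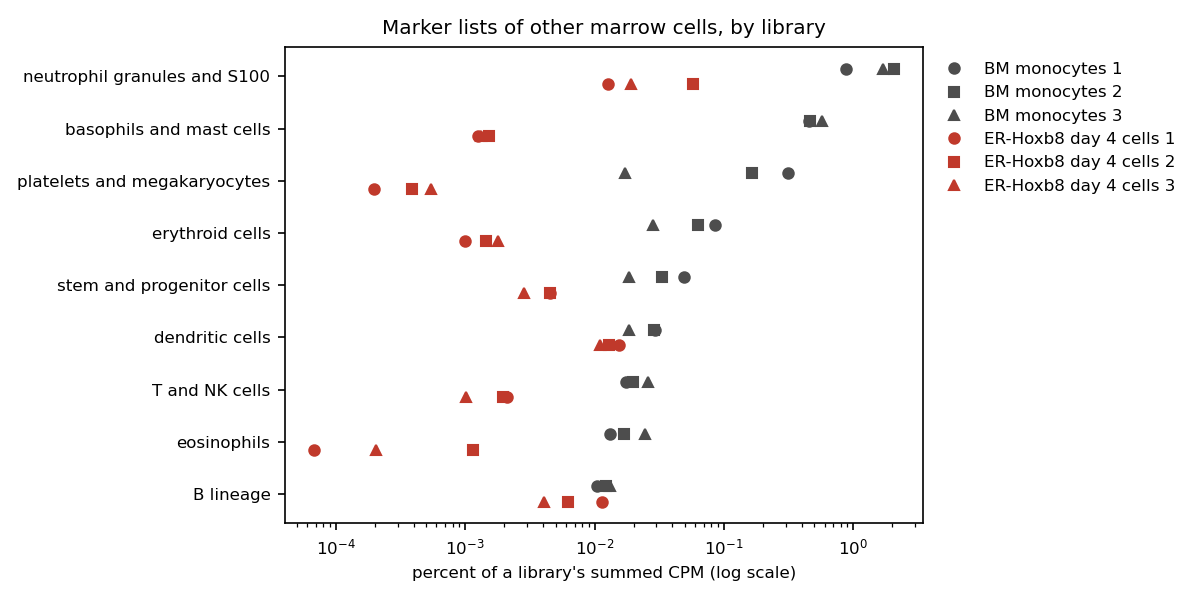
Share of each library's summed CPM, in percent on a log axis, taken by 9 lists of markers of other marrow cells, with monocytes in grey and day 4 cells in red and a symbol for each replicate. Neutrophil genes take 0.881% to 2.05% of the monocyte libraries and 0.0126% to 0.0581% of the day 4 libraries.

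The day 4 cells differed widely from the monocytes: many monocyte and granulocyte genes and some of MHC class II were lower, and some genes of mature macrophages, lysosomes, lipid handling and iron storage were higher. A gene was tested when its CPM was above 1 in at least 3 of the 6 libraries, and called when limma gave an adjusted p below 0.05 with a log2 fold change of at least 2 in size. Of 11166 genes tested, 1308 were called (11.7%), 450 higher in the day 4 cells (4.03%) and 858 lower (7.68%). The median log2 fold change over all genes tested was 0.02. At an adjusted p below 0.05 alone, 1149 genes were higher and 1309 lower, and 154 genes with a log2 fold change of at least 2 did not pass. Levels did not overlap between the groups for 4465 genes (40.0%). With all genes of the 9 lists of other cells left out, an alternative chosen after seeing the data, 449 genes were higher and 771 lower. A called gene lower in the day 4 cells was at or under 3 counts in all 3 of them in 143 cases, and a called gene higher there was at that floor in all monocyte libraries in 12. For such genes the fold is a lower bound, taken as the mean level of the higher group against the highest floor among the other group's libraries.

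The count depended on the filter once a monocyte library was dropped, because a gene found in monocytes only cannot pass in 3 libraries when 2 are left. It came to 718, 680 and 671 genes without monocyte replicates 1, 2 and 3, of which 297, 272 and 304 were lower. With the same genes tested, between 1114 and 1226 of the 1308 calls were kept when any of the 6 libraries was left out, and no call changed direction. With the spread estimated over all 4 groups of the 12 libraries, 1114 of the calls were kept. Among genes given below with a log2 fold change, Trem2 (adjusted p = 0.0529), Cd68 (0.105), Aif1 (0.161), Cd74 (0.104), Colec12 (0.173), S1pr1 (0.0904), Tnfsf9 (0.0988), S100a8 (0.0893), Klf4 (0.0601) and Mrc1 (0.0799) then no longer passed. Of 66 called genes named below without one, 22 were lost in the same way, namely Asns, Atf3, Btg2, C5ar1, Ccl4, Cd34, Cd79b, Clec7a, Csf3r, Cxcl16, Egr2, F13a1, Il6ra, Klf2, Maf, Oas2, Runx3, Tgfbr1, Tgfbr2, Tlr5, Trib3 and Zfp36. With the 6 libraries left out 1 at a time, 25 of the 66 were lost at least once: Apoe, Asns, C3, Ccl4, Cd163, Cd34, Cd79b, Clec7a, Csf3r, Ets2, Fabp4, Il1r2, Il6ra, Klf2, Maf, Mmp8, Oas2, Pparg, Sc5d, Tgfbr1, Tgfbr2, Tlr5, Trib3, Vcan and Zfp36.

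The genes with the largest changes are named by rule, as the 10 strongest in each direction with separate groups and a mean level of at least 5 in the higher group. Dab2, an adaptor for clathrin-dependent endocytosis, was at 1.70, 1.55 and 1.37 in the monocytes and at 11.08, 10.21 and 10.79 in the day 4 cells. That is a log2 fold change of 9.15 (SE 0.26, adjusted p = 1.07e-06), with all 3 day 4 libraries above all 3 monocyte libraries. Gpnmb, a glycoprotein of macrophage lysosomes, was at 4.97, 4.76 and 4.49 against 14.35, 13.27 and 10.82, a log2 fold change of 8.08 (SE 0.75, adjusted p = 0.000198). Day 4 library 3 was the lowest of the line's libraries for it, and still lay far above the monocytes. Fblim1, a linker protein of actin adhesions, was at 0.23, -1.01 and -1.50 against 7.03, 7.12 and 6.26. Hpgds, the hematopoietic prostaglandin D synthase, was at 0.90, 1.16 and 1.36 against 9.17, 8.29 and 8.30. The log2 fold changes of these last genes were 7.57 and 7.45 (SE 0.49 and 0.30), again with all 3 day 4 libraries on top.

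Among the higher genes were several secreted factors. F7, coagulation factor VII, was at 1.53, 0.37 and 1.85 in the monocytes and 9.08, 8.95 and 7.22 in the day 4 cells. Igf1, insulin-like growth factor 1, was at 0.30, -0.51 and 0.34 against 7.27, 7.10 and 7.04. Mmp12, the macrophage elastase, was at 1.53, 1.63 and 1.36 against 8.31, 8.79 and 8.06. For these 3 genes the monocyte levels were close to 1 CPM or a few CPM, and the log2 fold changes were 7.17, 7.09 and 6.88 (SE 0.56, 0.32 and 0.26). Ccnd1, which encodes cyclin D1 of the G1 phase, went from 3.30, 3.14 and 2.15 to 10.35, 8.77 and 10.16, a log2 fold change of 6.90 (SE 0.46). Arhgap22, a GTPase-activating protein, and Syngr1, a vesicle membrane protein, had log2 fold changes of 6.48 and 6.42 (SE 0.42 and 0.61). Syngr1 was uneven among the lines, at 8.28, 5.95 and 5.80, with day 4 library 1 well above the others.

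Among the genes with the largest drops, several belong to other marrow cells. Klrb1f, a receptor of the natural killer cell lectin family, was at 5.71, 5.91 and 6.35 in the monocytes and -4.34, -4.34 and -2.84 in the day 4 cells, where it was at or under the floor, so it was at least 702-fold lower. As3mt, an arsenite methyltransferase, was at 5.07, 5.43 and 5.15 in the monocytes and at the lowest value in all day 4 libraries, at least 410-fold lower. Igkv15-103, an immunoglobulin light chain segment, was at least 364-fold lower. All 3 were detected in every monocyte library. Mcpt8 and Prss34, proteases of basophils, had log2 fold changes of -9.49 and -9.19 (SE 0.28 and 0.27), with Prss34 going from 11.53, 11.74 and 12.04 to 2.11, 2.68 and 2.96. Pglyrp1, a peptidoglycan-binding protein of neutrophil granules, went from 6.65, 8.48 and 8.19 to -1.16, -1.54 and -0.63, a log2 fold change of -8.89 (SE 0.51). The share of basophil and neutrophil markers moved with these genes, and its part in their drop was not tested.

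The rest of the rule's genes included Cd209a of the dendritic cell list and Ms4a4c of the classical monocyte list. Cd209a, a C-type lectin of dendritic cells and monocytes, was at 6.91, 6.74 and 5.43 in the monocytes and -4.34, -3.31 and -2.56 in the day 4 cells, a log2 fold change of -9.77 (SE 0.60, adjusted p = 3.4e-05). Ms4a4c, a membrane protein of the MS4A family, went from 8.46, 8.50 and 8.67 to -1.56, 0.05 and -0.66, a log2 fold change of -9.27 (SE 0.40). In both cases every monocyte library lay above every day 4 library. Serpinb10, a protease inhibitor, and I830127L07Rik had log2 fold changes of -9.06 and -8.86 (SE 0.41 and 0.49), also without overlap.

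Of the classical monocyte list, 24 genes were listed, 23 were in the table and tested, none was higher, 14 were lower and 9 did not pass. The median log2 fold change of the list was -3.25, beside 0.02 over all genes (-2.17 without day 4 replicate 1 and -4.01 without day 4 replicate 2), and 60.9% of its members were called lower, beside 7.68% of all genes. Fn1, fibronectin, was at 11.42, 11.38 and 11.44 in the monocytes and 1.56, 4.67 and 2.69 in the day 4 cells, a log2 fold change of -8.44 (SE 0.65, adjusted p = 8.01e-05). Hp, haptoglobin, was at 9.82, 10.31 and 10.70 against 3.74, 6.82 and 4.23, a log2 fold change of -5.34 (SE 0.71, adjusted p = 0.0011). The monocyte libraries were within 1 log2 unit of each other for both genes, while the lines ranged over about 3 and stayed below them. Plac8 and Ms4a6c, further genes of inflammatory monocytes, had log2 fold changes of -7.68 and -7.91 (SE 0.32 and 0.23). Their day 4 levels of 0.87, 1.12 and 1.43 and 1.84, 2.11 and 2.20 were alike in the 3 lines.

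The surface protein genes Ly6c1 and Ly6c2 lie close together on chromosome 15. Ly6c2 fell from 10.27, 10.49 and 11.04 to 4.09, 7.19 and 6.20, a log2 fold change of -4.77 (SE 0.68, adjusted p = 0.00156), and the weakly measured Ly6c1 from 1.81, 1.28 and 1.94 to -2.47, -1.74 and -3.69, a log2 fold change of -4.31 (SE 0.65), or -1.83 and not called with a pseudocount of 1. Monocyte levels of both lay above all day 4 levels. Their promoters are shown because both genes fell and their sequences can be compared. The windows run from 250 bases before to 50 after the start site in the RefSeq table for build GRCm38.p6 (the authors used GRCm39), read 5′ to 3′ on the strand of the gene. Ly6c2 is at chr15:75111922-75112221 and Ly6c1 at chr15:75048614-75048913, both on the minus strand. Capitals mark GAGGAAGT, a motif of the kind bound by ETS-family factors such as PU.1, searched on both strands.
Ly6c2: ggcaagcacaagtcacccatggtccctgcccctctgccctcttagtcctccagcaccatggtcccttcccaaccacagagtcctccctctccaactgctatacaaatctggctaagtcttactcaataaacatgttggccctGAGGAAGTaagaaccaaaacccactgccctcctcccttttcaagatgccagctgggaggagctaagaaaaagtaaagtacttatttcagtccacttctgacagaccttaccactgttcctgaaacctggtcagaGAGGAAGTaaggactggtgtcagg
Ly6c1: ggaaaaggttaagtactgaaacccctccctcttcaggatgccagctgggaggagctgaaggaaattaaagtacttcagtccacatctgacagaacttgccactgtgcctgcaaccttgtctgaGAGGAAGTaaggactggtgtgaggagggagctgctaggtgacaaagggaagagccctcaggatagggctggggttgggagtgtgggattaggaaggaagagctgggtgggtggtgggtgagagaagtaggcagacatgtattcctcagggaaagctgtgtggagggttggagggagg
The Ly6c2 window held 2 matches and the Ly6c1 window 1. RefSeq promoters were found for 17 of the 24 listed genes, and 4 genes held the motif, of which Ly6c1, Ly6c2 and F13a1 were called lower and S100a4 did not pass. For the neutrophil list, 20 of 22 genes had a promoter and 6 held the motif, namely S100a8, Mpo, Elane, Prtn3, Mmp8 and Ly6g, all called lower. With or without the motif, 95% of the tested neutrophil genes were called lower. For the classical monocyte list it was 60.9%, beside 7.68% of all genes. The calls of motif holders therefore say nothing about the motif. By promoter, 21.7% of the classical monocyte windows and 31.8% of the neutrophil windows held it, beside 3.20% of all 32851 windows of 300 bases. These matches describe the letters of the windows and no binding was measured.

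Members that did not pass had smaller or uneven differences. Irf8, a transcription factor of the monocyte lineage, was at 7.14, 7.81 and 7.36 in the monocytes and 5.84, 6.75 and 6.90 in the day 4 cells, a log2 fold change of -0.94 (adjusted p = 0.0717, lower in all 3 day 4 libraries). Ccr2, the receptor for marrow exit, was at 10.54, 9.97 and 9.83 against 2.34, 9.34 and 8.06, a log2 fold change of -3.53 (SE 1.51, adjusted p = 0.138). All day 4 libraries lay below the monocytes, but library 1 was about 6 log2 units below the other lines, so the spread was wide. Ccr2 passed the threshold without day 4 replicate 2, at a log2 fold change of -4.91, and with array weights, at -4.98. Cd93, Clec4e and S100a4 had positive fold changes that were below the limit of 2. The patrolling monocyte list had 15 genes, 14 in the table and 13 tested, with a median of -2.75. Of these 13, 1 was higher (7.69%), 7 were lower (53.8%, beside 4.03% and 7.68% of all genes) and 5 did not pass. Only 9 of the 13 were above 1 CPM in all day 4 libraries, so this count too only describes the list. Its lower members included Nr4a1, the transcription factor of this subset, at 6.00, 6.20 and 4.98 against 0.43, 3.22 and 1.89. Its higher member was Apoc2, an apolipoprotein, at 4.58, 6.18 and 5.96 against 9.38, 10.24 and 8.73.

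Most tested genes of granulocytes and other marrow cells were lower. A gene tested only because the monocyte libraries held it had to differ, so these counts and shares only describe the lists. The members above 1 CPM in all 3 day 4 libraries were 10 of the 20 tested for neutrophils, 2 of 10 for basophils, 3 of 12 for erythroid cells, 2 of 11 for the B lineage, 1 of 14 for T and NK cells, 4 of 13 for dendritic cells and 1 of 13 for stem cells, and none for eosinophils and platelets. Of 22 neutrophil genes, 20 were tested, 19 were lower (95%, beside 7.68% of all genes) and 1 did not pass (median -7.05). Mpo, myeloperoxidase, which monocyte progenitors also express, was at 11.97, 12.19 and 12.34 in the monocytes and 3.39, 4.13 and 4.34 in the day 4 cells, a log2 fold change of -8.21 (SE 0.28). Elane, neutrophil elastase, went from 9.82, 10.38 and 11.39 to 1.96, 2.46 and 2.78, a log2 fold change of -8.13 (SE 0.40). These primary granule genes were high in all 3 monocyte libraries. Genes of more mature neutrophils were uneven: Ngp was at 7.85, 12.47 and 11.05 and S100a8 at 6.71, 10.16 and 9.67, both low in monocyte library 1, against 2.03, 2.69 and 3.77 and 5.09, 5.45 and 4.90 in the day 4 cells. The log2 fold change of Ngp was -7.63 (SE 1.03), and that of S100a8 was -3.70 (SE 0.78), which without monocyte replicate 3 was -3.29 and no longer passed (adjusted p = 0.0513, lower in all 3 day 4 libraries).

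Basophil and mast cell genes numbered 13, with 10 tested and 9 lower (90%, where 7.68% of all genes were lower and 4.03% higher; median -7.85); Csf1 alone among those tested did not pass. All 6 tested of 8 platelet genes were lower (100%; median -7.62), among them the chemokine Ppbp, at 10.44, 9.63 and 6.18 against -0.14, -0.07 and 0.48. Monocyte library 3 was the low one for every platelet gene tested. Of 16 erythroid genes, 14 were in the table and 12 tested, and 10 were lower (83.3%; median -4.82), such as the globin Hba-a1 at 6.92, 6.73 and 5.19 against -0.13, 0.80 and 1.26. Of 8 eosinophil genes 7 were tested and 6 were lower (85.7%; median -5.52). Among 15 B lineage genes 11 were tested, 9 were lower and 1, the signalling adaptor Blnk, was higher (81.8% and 9.09%; median -4.28). T and NK cell genes numbered 18, with 14 tested and 13 lower (92.9%; median -5.74, or -5.51 with the 4 genes at the floor set to their bounds). Among 16 dendritic cell genes 13 were tested and 7 were lower (53.8%; median -2.75), and among 19 stem and progenitor genes 13 were tested and 11 were lower (84.6%; median -5.03, or -4.80 with bounds for 2 genes). No member of these 4 lists other than Blnk was higher. Gata2, a factor of progenitors and mast cells, was at 4.17, 3.65 and 3.95 against -4.34, -4.34 and -2.12. The stem cell receptor Kit did not pass, at 4.42, 4.50 and 3.13 against 4.30, -1.15 and -1.80: day 4 library 1 held a level within the monocyte range.

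Some macrophage genes moved the other way. The study's own list of macrophage identity genes, which it chose and which is therefore no independent evidence, had 13 genes, all tested: 5 were higher (38.5%), 1 was lower (7.69%, beside 4.03% and 7.68% of all genes) and 7 did not pass (median 1.47). Trem2, a lipid-sensing receptor, was at 5.17, 4.99 and 5.67 in the monocytes and 10.60, 9.82 and 9.47 in the day 4 cells, a log2 fold change of 4.68 (SE 0.32, adjusted p = 4.59e-05), a call lost with the shared spread. Cd14, the co-receptor for lipopolysaccharide, was at 5.31, 7.45 and 6.95 against 10.93 to 12.90, with line 3 alone above 12 log2 units, a log2 fold change of 5.04 (SE 0.66, adjusted p = 0.00104). All 3 lines lay above all monocytes for both. Emr1, which encodes the F4/80 antigen, was at 7.25, 7.15 and 6.62 against 9.63, 9.54 and 8.78, and Cd68, a lysosomal membrane protein, was at 8.71, 9.03 and 9.11 against 12.09, 10.95 and 10.96. Their log2 fold changes were 2.31 and 2.39 (SE 0.29 and 0.35). The lower member was Aif1, which encodes IBA1, at 5.99, 6.08 and 5.93 against 3.44, 4.57 and 2.98, and its log2 fold change of -2.34 came to -1.995, just under the limit, without day 4 replicate 3. Csf1r had a log2 fold change of 0.88 and did not pass (adjusted p = 0.0605, higher in 3 of 3 day 4 libraries).

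The macrophage maturation list shares members with other lists, the study's included. Of its 26 genes 23 were tested, 13 were higher, none was lower and 10 did not pass (56.5% higher, beside 4.03% of all genes; median 2.26). Mrc1, the mannose receptor, was at 3.12, 2.69 and 1.93 in the monocytes and 8.48, 9.01 and 3.93 in the day 4 cells. Day 4 library 3 lay much nearer to the monocytes than the other lines did, and the log2 fold change of 4.56 (SE 1.16, adjusted p = 0.0242) did not pass when any library except day 4 replicate 3 was left out (3.62 to 4.83, adjusted p 0.0601 to 0.0945). Cd63, a tetraspanin of late endosomes, was at 6.25, 6.83 and 7.09 against 11.64, 10.57 and 9.52. Complement genes C1qa and C1qb, which many tissue macrophages express, stayed low and overlapped, C1qb at 0.28, 0.23 and 2.30 against 2.15, 1.10 and -2.13. C1qc was at -0.89, 1.19 and 1.18 against 5.28, 3.32 and 1.35, higher in all 3 lines, and did not pass (log2 fold change 2.82, adjusted p = 0.0753); it passed without day 4 replicate 3 (3.80), with quantile normalization (3.31) and with array weights (3.53). Timd4, Vsig4 and Folr2, receptors of resident macrophages, had too few counts to be tested. The day 4 cells thus had some markers of mature macrophages and lacked others.

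**Figure D3:**
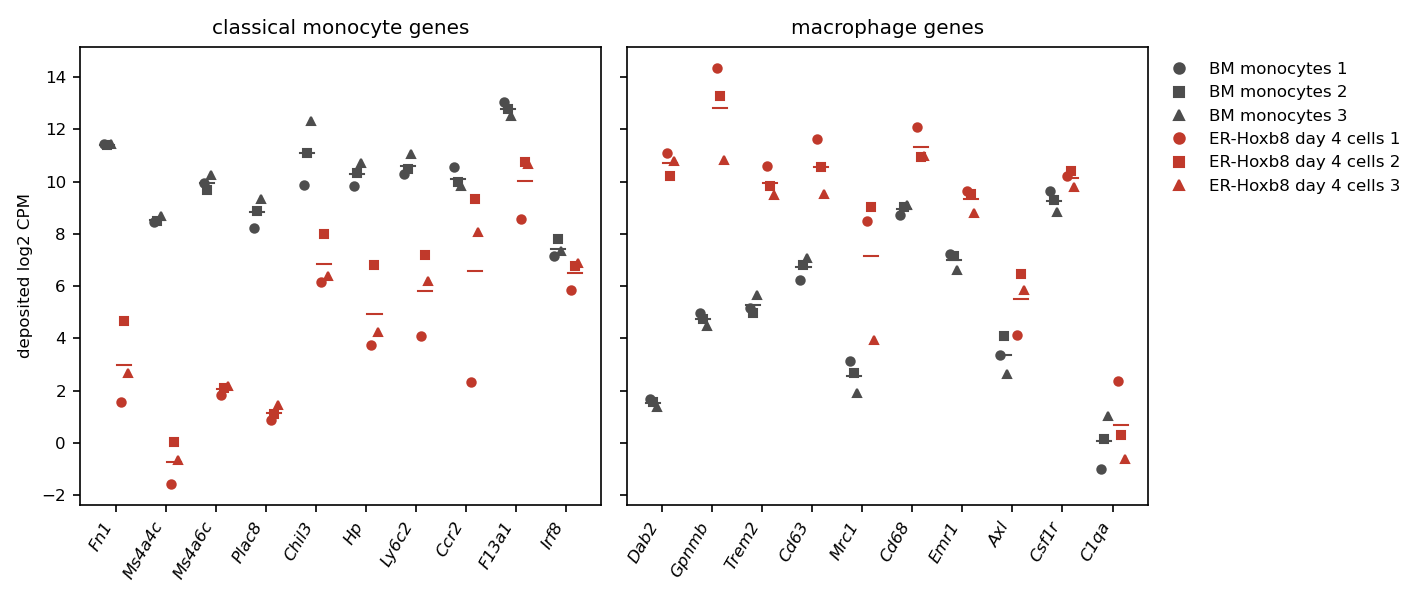
Deposited log2 CPM of 10 monocyte genes (left) and 10 macrophage genes (right) in each library, with a line at each group mean, monocytes in grey and day 4 cells in red. Fn1 lies near 11.4 in all monocyte libraries and between 1.56 and 4.67 in the day 4 libraries, and Dab2 shows the opposite order.

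Transcription factors of myeloid cells split in both directions: of 36 listed, 34 were tested, 10 were higher (29.4%), 5 were lower (14.7%, beside 4.03% and 7.68% of all genes) and 19 did not pass (median -0.08). Etv5, an ETS factor, was at -0.34, -2.88 and -1.15 in the monocytes and 4.66, 4.52 and 4.60 in the day 4 cells, a log2 fold change of 6.05 (SE 0.63). Bhlhe40 and Bhlhe41, related repressors that permit macrophage self-renewal, were at 2.97, 3.93 and 3.08 against 8.32, 6.87 and 6.71 and at 4.76, 4.97 and 5.12 against 8.63, 8.24 and 7.92. Their log2 fold changes were 3.97 and 3.31 (SE 0.46 and 0.24), with the 3 lines above the 3 monocyte libraries. The other higher factors included Maf, Mitf, Egr2, Pparg, Nr1h3 and Ets2, several of them regulators of macrophage maturation or lipid metabolism. Lower factors were Klf4, Klf2, Nr4a1, Cebpe and Runx3. Klf4, a factor of monocyte commitment, was at 4.97, 5.32 and 6.23 against -2.26, 3.49 and 1.47, a log2 fold change of -4.61 (SE 1.23, adjusted p = 0.0289), with day 4 library 1 lowest; its call was lost without monocyte replicate 1, 2 or 3 (-4.88, -4.70 and -4.25). Spi1, which encodes PU.1, was at 4.45, 4.29 and 4.28 against 3.41, 4.68 and 3.48 with overlap (adjusted p = 0.4, log2 fold change -0.48, lower in 2 of 3 day 4 libraries).

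Of 23 receptors for growth factors and cytokines, all tested, 2 were higher (8.70%), 6 were lower (26.1%, beside 4.03% and 7.68% of all genes) and 15 did not pass (median -0.48). The higher ones were Tgfbr1 and Tgfbr2, the receptor chains for TGF-beta. Lower were Csf3r, Flt3, Il3ra, Il6ra, Il1r2 and Il13ra1, among them Flt3, the receptor for FLT3 ligand on progenitors, at 3.04, 2.98 and 3.00 against -2.21, -1.51 and -2.34. Il3ra, the IL-3 receptor chain, was at 2.24, 2.94 and 3.09 against -0.62, -4.34 and -3.22, a log2 fold change of -5.48 (SE 0.91). The GM-CSF receptor chains Csf2ra, Csf2rb and Csf2rb2 overlapped between the groups, Csf2rb at 8.17, 7.91 and 7.66 against 7.50, 8.07 and 6.72. Of 8 genes of the Hox B cluster, only Hoxb4 was tested, and it did not pass (log2 fold change -0.04). Hoxb8 itself was too low to be tested, at the lowest value in every monocyte library and at -0.34, -2.24 and 1.19 in the day 4 cells. In the ER-Hoxb8 progenitors the most abundant gene of the cluster was at -0.43, 0.003 and 0.33, so Hoxb8 was no higher than that there. Its low day 4 level therefore shows no shut-off.

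Most lysosomal genes had a positive log2 fold change (36 of 40), but few reached the limit of 2. Of the 40 listed and tested, 7 were higher (17.5%) and 1 was lower (2.5%), beside 4.03% and 7.68% of all genes. The other 32 did not pass, and the median of the list was 1.23. Together the 40 genes took 2.46%, 2.39% and 2.33% of summed CPM in the monocytes and 10.1%, 7.89% and 3.58% in the day 4 cells. The lines were therefore uneven, with library 3 nearest to the monocytes. Ctsd, cathepsin D, was at 9.13, 9.02 and 8.99 in the monocytes and 14.98, 13.80 and 12.64 in the day 4 cells, a log2 fold change of 4.76 (SE 0.54, adjusted p = 0.000513). Ctsb, cathepsin B, was at 10.85, 11.02 and 10.89 against 15.13, 13.74 and 13.31, a log2 fold change of 3.14 (SE 0.50). Both showed the 3 day 4 libraries on top, in the order of the list's share. Lipa, the acid lipase that frees cholesterol from its esters, was at 7.75, 8.01 and 7.77 against 12.15, 11.53 and 11.16, and Gla, a galactosidase, at 1.20, 1.70 and 1.91 against 4.85, 3.54 and 4.01. Their log2 fold changes were 3.77 and 2.53 (SE 0.29 and 0.41). The lower member was Acp5, the tartrate-resistant phosphatase of osteoclasts, at 4.11, 5.00 and 4.02 against 1.07, 2.40 and -0.16, a log2 fold change of -3.27 (SE 0.63).

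The promoters of Ctsd and Gla are shown as the called lysosomal genes that hold TCACGTGA, the palindromic element bound by the MiT/TFE family that controls lysosomal genes. The windows have the same length and build as those above; Ctsd is at chr7:142387778-142388077 and Gla at chrX:134600956-134601255, both on the minus strand, with the element in capitals.
Ctsd: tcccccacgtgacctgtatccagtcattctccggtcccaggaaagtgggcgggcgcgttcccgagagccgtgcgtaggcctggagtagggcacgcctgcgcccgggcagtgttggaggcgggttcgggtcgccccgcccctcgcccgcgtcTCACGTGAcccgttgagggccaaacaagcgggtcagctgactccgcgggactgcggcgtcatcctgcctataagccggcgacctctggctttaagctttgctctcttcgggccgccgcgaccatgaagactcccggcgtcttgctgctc
Gla: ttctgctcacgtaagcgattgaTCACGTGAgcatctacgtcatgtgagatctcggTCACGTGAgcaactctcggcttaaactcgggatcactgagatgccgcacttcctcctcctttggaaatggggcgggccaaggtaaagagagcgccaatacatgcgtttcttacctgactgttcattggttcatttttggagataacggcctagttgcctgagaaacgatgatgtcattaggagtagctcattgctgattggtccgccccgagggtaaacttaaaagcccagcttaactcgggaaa
The Ctsd window held 1 match and the Gla window 2, and GAGGAAGT, which overlaps neither, also occurred in the Gla window. RefSeq promoters were found for 30 of the 40 lysosomal genes, and 6 of those held the element: Ctsa, Ctsd, Gla, Atp6v1a, Cln3 and Mcoln1. By promoter that is 17.1%, beside 0.974% of all 32851 windows. Among the factors of this family, Mitf was called higher, while Tfec, Tfe3 and Tfeb did not pass, with levels of 4.49, 4.44 and 4.67 in the monocytes and 4.64, 5.31 and 4.30 in the day 4 cells for Tfeb.

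Genes known from osteoclast-like cells in M-CSF culture shared several members with the lists above. Of 14 listed, 10 were tested, 5 were higher (50%) and 2 were lower (20%, beside 4.03% and 7.68% of all genes) (median 2.20). Spp1, the secreted protein osteopontin, was at 7.59, 7.79 and 8.11 in the monocytes and 12.90, 12.60 and 14.49 in the day 4 cells, a log2 fold change of 5.50 (SE 0.48, adjusted p = 0.000143), higher in all 3 lines. Atp6v0d2, a proton pump subunit, was at 1.33, 0.80 and 0.13 against 8.37, 7.78 and 4.37, a log2 fold change of 6.09 (SE 0.93), with line 3 lowest. The lower members were Acp5 and Itgb3, an integrin chain also found on platelets, at 7.89, 6.69 and 4.66 against 3.01, 0.22 and -0.64. For Itgb3 monocyte library 3 was the low one, as it was for the platelet genes, whose part in the difference was not tested.

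Lipid handling genes were called in part. Of 22 genes of lipid transport and LXR response, 20 were tested, 8 were higher (40.0%), 1 was lower (5%, beside 4.03% and 7.68% of all genes) and 11 did not pass (median 1.84). Lpl, lipoprotein lipase, was at 5.35, 5.56 and 5.94 in the monocytes and 10.03, 11.38 and 11.22 in the day 4 cells, a log2 fold change of 5.26 (SE 0.37, adjusted p = 4.92e-05). Scd1, a fatty acid desaturase, was at -1.71, -1.71 and -3.33 against 5.61, 4.81 and 1.15, a log2 fold change of 6.11 (SE 1.10, adjusted p = 0.00491). Every line was above every monocyte library for both, though line 3 had less Scd1 than the others. The cholesterol exporters Abca1 and Abcg1 did not pass, and day 4 library 3 lay within the monocyte range for Abcg1, at 6.32, 7.00 and 6.61 against 10.02, 9.21 and 6.47. Apoe, an apolipoprotein that many macrophages secrete, was the lower member, at 1.69, 3.94 and 2.39 against -0.07, 0.02 and 1.29, a call that was lost with 4 of the 6 libraries left out in turn and with quantile normalization (-1.78, adjusted p = 0.103). Of 25 sterol synthesis genes, 24 were in the table and 23 tested; 4 were higher (17.4%, beside 4.03%), none was lower and 19 did not pass (median 1.37). The 4 were Sqle and Lss, which make and close squalene epoxide, and the later enzymes Msmo1 and Sc5d. Sqle was at 4.83, 4.82 and 4.40 against 8.43, 8.09 and 8.94, a log2 fold change of 3.80 (SE 0.27), and Lss was at 4.02, 2.51 and 3.12 against 7.02, 6.62 and 7.01, a log2 fold change of 3.67 (SE 0.37). All lines lay above all monocyte libraries for both.

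Iron and antioxidant genes had 20 members, all tested, with 4 higher (20%, beside 4.03%) and none lower (median 1.23). Ftl1, the ferritin light chain, was at 13.10, 13.44 and 13.61 in the monocytes and 16.27, 15.95 and 15.63 in the day 4 cells, and Fth1, the heavy chain, at 6.31, 8.25 and 6.83 against 11.94, 11.69 and 11.39. Their log2 fold changes were 2.57 (SE 0.53) and 4.54 (SE 0.46), with every line above every monocyte library. The call for Ftl1 was lost without monocyte replicate 1, 2 or 3, at 2.42, 2.59 and 2.68, and with quantile normalization, at 1.32. The other higher members were Srxn1 and Slc7a11, a sulfiredoxin and the cystine transporter. Glycolysis had 22 members, all tested, of which 1 was higher, 1 was lower (4.55% each, beside 4.03% and 7.68% of all genes) and 20 did not pass (median 0.50). Aldoc, an aldolase, was at 2.29, 1.64 and 1.22 against 7.40, 6.70 and 6.60, a log2 fold change of 5.18 (SE 0.35). Slc2a3, the glucose transporter GLUT3, was at 8.38, 8.11 and 5.78 against -1.25, -0.06 and -0.35, a log2 fold change of -7.98 (SE 0.67). Monocyte library 3 was low for Slc2a3, which platelets also express, and the part of platelets in the difference was not tested.

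**Figure D4:**
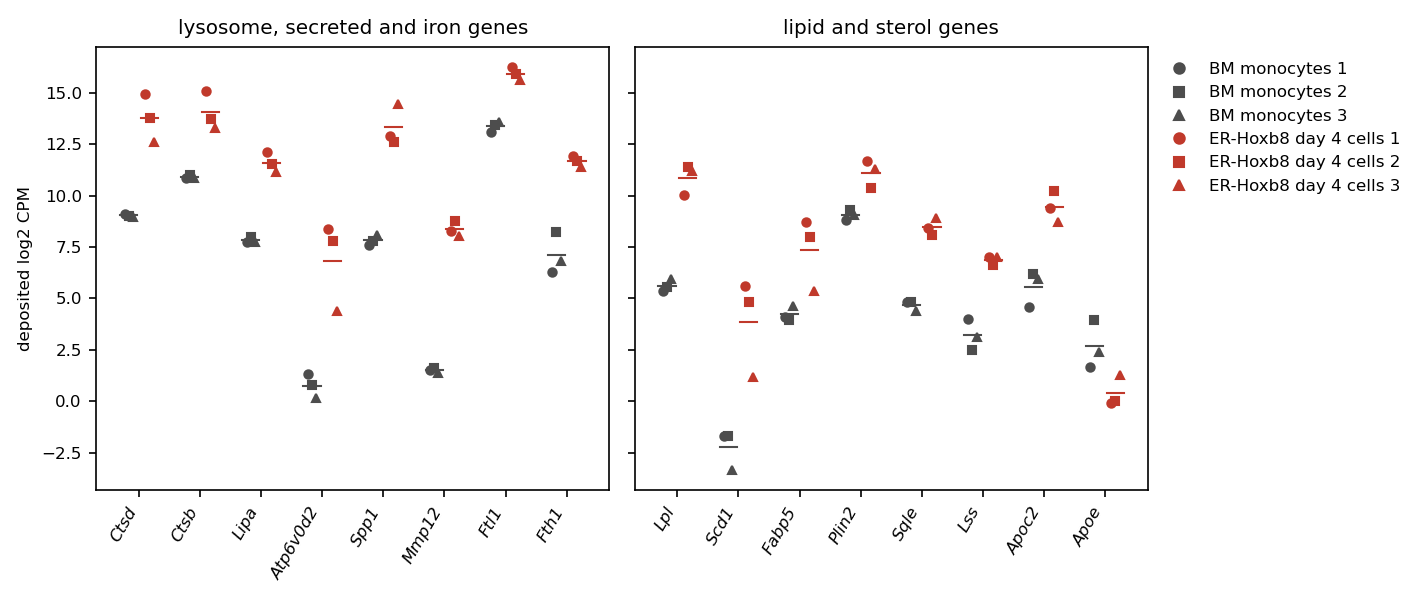
Deposited log2 CPM of 8 lysosome, secreted and iron genes (left) and 8 lipid and sterol genes (right) in each library, with a line at each group mean, monocytes in grey and day 4 cells in red. Ctsd lies near 9.0 in the monocytes and between 12.64 and 14.98 in the day 4 cells, and Apoe is the gene shown here that is lower in the day 4 cells.

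Some class II genes of antigen presentation were lower. Of 10 such genes, 8 were tested, 5 were lower (62.5%, beside 7.68% of all genes) and 3 did not pass (median -2.62). H2-Aa, a class II chain, was at 6.98, 5.75 and 5.03 in the monocytes and -2.33, -2.50 and -2.35 in the day 4 cells, a log2 fold change of -8.31 (SE 0.52, adjusted p = 3.43e-05). Cd74, the invariant chain, was at 10.33, 9.38 and 8.52 against 4.88, 7.67 and 5.74, a log2 fold change of -3.31 (SE 0.70). Monocyte library 1 had the highest levels of both and all lines lay below the monocytes. Of the 8 genes tested, 4 were not above 1 CPM in all day 4 libraries and were tested for their monocyte levels, so the count only describes the list. Class I presentation had 14 genes, all tested and none called, with a median of -0.67.

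Chemokine genes were often too low to test. Of 20 listed, 10 were tested, 3 were higher (Ccl4, Ccl7 and Cxcl16), 2 were lower and 5 did not pass (30% and 20%, beside 4.03% and 7.68% of all genes; median 1.41, or 0.89 without monocyte replicate 1). Ccl7, an attractant of monocytes, was at -2.39, -4.34 and -2.35 in the monocytes and 5.44, 2.79 and 6.17 in the day 4 cells, a log2 fold change of 7.83 (SE 0.93). Ccl5, an attractant of T cells, was at 3.84, 4.29 and 4.77 against 1.23 to 1.60, a log2 fold change of -2.89 (SE 0.35), and the other lower member was the platelet chemokine Pf4. Of 28 homing and adhesion receptors, 27 were tested, 3 were higher (11.1%), 7 were lower (25.9%, beside 4.03% and 7.68% of all genes) and 17 did not pass (median -1.03). The receptors for sphingosine phosphate, a signal for leaving tissues, went apart: S1pr4 was at 5.79, 6.21 and 6.01 against -0.27, 0.13 and 0.16 and S1pr1 at 2.07, 2.14 and 1.82 against 5.70, 4.10 and 4.88. Their log2 fold changes were -6.00 and 2.88 (SE 0.30 and 0.42), each without overlap. Itgb7, an integrin chain of gut homing, was at 5.54, 5.52 and 6.37 against -4.34, 0.09 and -1.13.

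Receptors for uptake moved in both directions. Of 24 scavenger and phagocytic receptors, 17 were tested, 6 were higher (35.3%), 3 were lower (17.6%, beside 4.03% and 7.68% of all genes) and 8 did not pass (median 1.91). Stab1, a scavenger receptor, was at 1.34, 1.41 and 1.10 in the monocytes and 5.25, 5.80 and 6.54 in the day 4 cells, a log2 fold change of 4.58 (SE 0.36). Colec12, a collectin, was at 4.83, 4.83 and 4.01 against 8.88, 8.11 and 7.37, a log2 fold change of 3.56 (SE 0.40), which did not pass with the shared spread. All lines were above the monocytes for both, while Cd163, Olr1 and Clec7a were lower. The call for Cd163 was lost without monocyte replicate 1, 2 or 3 (adjusted p 0.0723 to 0.0855), and that for Clec7a without any library except day 4 replicate 2. Marco, Cd5l, Timd4 and Stab2 were not tested for lack of counts. Of 22 toll-like receptors and adaptors, 20 were tested, 4 were higher (20%) and 1 was lower (5%), beside 4.03% and 7.68% of all genes. The other 15 did not pass, and the median of the list was 0.20. Tlr4, the receptor for lipopolysaccharide, was at 4.97, 5.03 and 4.59 against 8.18, 7.63 and 7.73, a log2 fold change of 2.98 (SE 0.23, adjusted p = 8.17e-05), higher in all 3 lines; Tlr5, the receptor for flagellin, was the lower one. Of 18 complement genes, 17 were in the table, 14 were tested, 2 were higher (C3ar1 and C5ar1, 14.3%) and 1 was lower (C3, 7.14%, beside 4.03% and 7.68% of all genes), with a median of 0.75. C3ar1, the receptor for a C3 fragment, was at 3.30, 3.57 and 2.63 against 9.04, 8.05 and 8.90, a log2 fold change of 5.50 (SE 0.34).

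Inflammatory cytokines were often too low to test. Of 18 cytokine genes, 10 were tested, 1 was higher (10%), 3 were lower (30%, beside 4.03% and 7.68% of all genes) and 6 did not pass (median -0.74), and Il6, Il10 and Nos2 were among those with too few counts. Only 5 of the 10 tested were above 1 CPM in all day 4 libraries, so the lower calls only describe the list. Tnfsf9, the ligand of 4-1BB, was at 0.45, 1.84 and 1.01 in the monocytes and 5.26, 4.82 and 5.81 in the day 4 cells, a log2 fold change of 4.20 (SE 0.44). Il12a, a chain of IL-12, was at 3.38, 3.17 and 2.55 against -4.34, -3.48 and -3.45, at least 90.2-fold lower. Of 30 interferon-stimulated genes, 29 were tested, 2 were higher, 2 were lower and 25 did not pass, with a median of -0.35. The antiviral genes Oas1a and Mx1 went opposite ways, Oas1a at 4.12, 5.15 and 4.57 against 7.66, 7.05 and 7.24 and Mx1 at 4.05, 3.88 and 3.96 against 0.45, 0.27 and 0.02. Their log2 fold changes were 2.70 and -3.72 (SE 0.30 and 0.33), and the remaining calls were Oas2 (higher) and Gbp2 (lower). That is 6.90% of the list in each direction, beside 4.03% and 7.68% of all genes.

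In 2 cell cycle lists, which do not hold Ccnd1, no gene was called. The 24 genes of G2 and mitosis, all tested, had a median of -0.57 and the 25 of DNA replication, all tested, a median of -0.52. Mitotic genes took 0.619%, 0.670% and 0.573% of monocyte CPM and 0.263%, 0.249% and 0.559% of day 4 CPM, so by share all lines lay below the monocytes and line 3 was close to them. In summed CPM, not divided by the library total, line 3 (6024) lay within the monocyte values (5332, 6200 and 5149). Lines 1 and 2 (3163 and 2569) lay below them. Mki67, the proliferation antigen, was at 8.50, 8.28 and 8.52 against 7.24, 7.20 and 7.87. DNA replication genes took 0.509%, 0.473% and 0.500% against 0.252%, 0.178% and 0.522%. Here lines 1 and 2 lay below the monocytes and line 3 above them. The median of DNA replication ran from -0.94 without day 4 replicate 3 to -0.13 without day 4 replicate 2.

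The lists that report on handling and quality were as follows. Of 22 immediate early and dissociation genes, 20 were tested, 1 was higher (5%) and 4 were lower (20%), beside 4.03% and 7.68% of all genes. The higher gene was Atf3, and the lower ones were Zfp36, Nr4a1, Btg2 and Klf2. The other 15 did not pass, and the median of the list was -0.74, or -1.70 without monocyte replicate 1. Nr4a1 and Klf2 were also given above as factors of the lineage, and for them handling and lineage cannot be told apart. Fos was at 5.63, 10.54 and 10.15 in the monocytes and 5.95, 5.61 and 6.86 in the day 4 cells and did not pass (log2 fold change -2.63, adjusted p = 0.14, lower in 1 of 3 day 4 libraries than every monocyte library); monocyte library 1 was low, and without it the log2 fold change was -4.20 and passed. The heat shock gene Hspa1a showed the same library apart, at -1.29, 8.09 and 6.17. Of 18 genes of the integrated stress response, 15 were tested, 3 were higher (Trib3, Asns and Slc7a11; 20%, beside 4.03%) and none was lower (median 0.37). For the amino acid enzyme Asns, line 3 was highest, at 6.63, 6.00 and 8.13. Of 13 genes of the mitochondrial genome, 12 were tested and none was called (median -0.08). Of 4 Y-linked genes, 2 were tested and neither passed (median -2.80). Eif2s3y, 1 of those not tested, was at 6.92, -3.69 and 6.58 in the monocytes and -3.29, -2.45 and -1.47 in the day 4 cells, so that monocyte libraries 1 and 3 carried Y-linked transcripts and monocyte library 2 and the 3 lines had almost none.

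**Figure D5:**
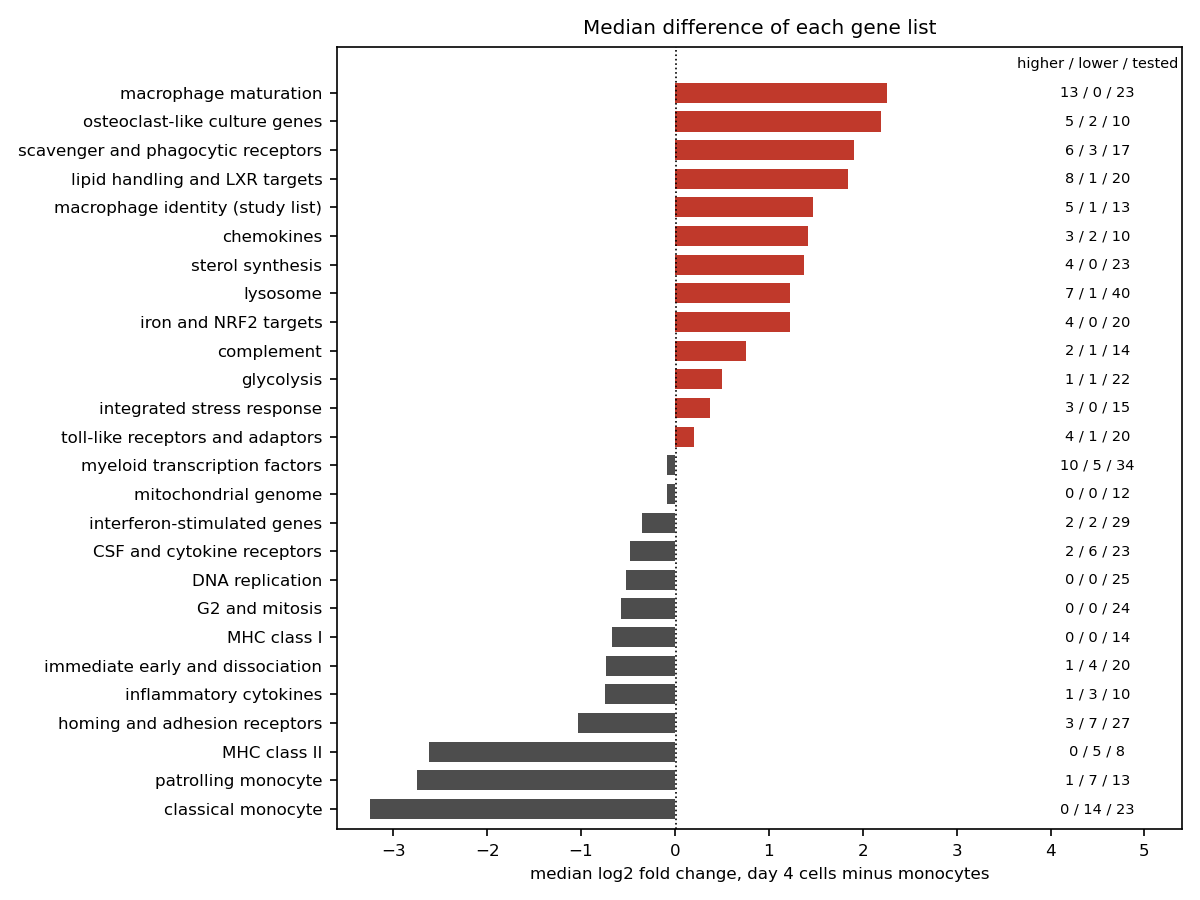
Median log2 fold change, day 4 cells minus monocytes, of each list with more than 2 genes tested, the lists of other marrow cells left out, with the counts of genes higher, lower and tested at the right and a dotted line at the median of all genes tested (0.02). Macrophage maturation (2.26) is at the top and the classical monocyte list (-3.25) at the bottom.

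The 3 lines differed from each other more than the monocyte preparations did in several of these genes. The median SD between libraries was 0.312 in the monocytes and 0.380 in the day 4 cells over all genes tested, and levels spread over more than 4 log2 units for 130 genes in the monocytes and 191 in the day 4 cells. Among list members the widest spread between lines with a narrow one in the monocytes was in Ccr2, given above. Mmp8, a neutrophil collagenase, followed at 2.20, 8.16 and 5.65 in the day 4 cells, where the monocytes were at 8.95, 9.62 and 9.52. Fabp4, a fatty acid carrier, was at 6.92, 5.25 and 2.21 against 1.03, 0.95 and 0.65. Fpr2, a receptor for formylated peptides, was at 0.33, 5.77 and 2.57 against 3.82, 4.90 and 5.20. Line 2 kept the most of the monocyte and granulocyte genes Ccr2, Mmp8, Fpr2, Hp and Ly6c2. Other such genes were highest in line 3, among them Vcan, Plac8, Ms4a6c, Irf8, Mpo, Elane and Ngp. No line thus kept the most of these genes as a whole. Line 3 had the least of the macrophage and lipid genes Gpnmb, Mrc1, Fabp4, Scd1 and Atp6v0d2. Line 3 also had the most Cd14, Cd36, Spp1 and Stab1. With 3 lines, this order is a description and was not tested.

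To see which differences were of another size before differentiation, the difference between day 4 cells and monocytes was compared with that between ER-Hoxb8 progenitors and marrow progenitors, in the 12 libraries. A positive value means that the line gained relative to marrow between the stages. Of 12134 genes tested, 257 passed (2.12%), 173 with a positive difference (1.43%) and 84 with a negative one (0.692%). Without ER-Hoxb8 progenitors replicate 2, the library that goes against its label, 575 of 12058 genes passed (4.77%), 385 positive (3.19%) and 190 negative (1.58%), and 248 of the 257 calls were kept. With progenitors and day 4 cells of the same number treated as a pair, 411 genes passed, 266 positive and 145 negative, all libraries included. Of the 1308 genes called between day 4 cells and monocytes, 86 also passed here, 22 of the higher and 64 of the lower ones, or 212 without that library, 95 and 117. The count of 257 rested on single libraries: it was 72, 87 and 51 without marrow progenitors 1, 2 and 3, 152 and 125 without monocytes 2 and 3, 183 and 570 without ER-Hoxb8 progenitors 1 and 3, and 116 and 143 without day 4 cells 1 and 3.

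The 5 strongest positive differences were in Efr3b, Sdc4, Prss50, Tmem231 and Sh2d4a. Sdc4, the heparan sulfate proteoglycan syndecan-4, was between 0.29 and 1.4 in the monocytes, 6.82, 4.28 and 6.06 in the day 4 cells, 3.90, 5.81 and 4.92 in the marrow progenitors and -0.99, 4.17 and -1.69 in the ER-Hoxb8 progenitors. Day 4 cells and monocytes did not overlap. The difference of differences was 9.17 (adjusted p = 0.0253 in limma), and 11.01 (adjusted p = 0.000281) without ER-Hoxb8 progenitors 2. The line thus had less Sdc4 than marrow before differentiation and more after it, and the doubted library, at 4.17, was the exception. Sh2d4a, an adaptor protein, differed by 7.43 in both fits, since the marrow progenitors were at 5.95, 5.41 and 5.46 and all ER-Hoxb8 progenitors at the lowest value, and the later groups were closer to each other. Its size depends on the prior count too, and was 4.81 with a pseudocount of 1, still passing. Efr3b (9.26 with and 9.26 without that library), Prss50 (8.62 and 9.43) and Tmem231 (8.02 and 9.22) were near or at the lowest value in several groups, so their sizes depend on the prior count.

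The 5 strongest negative differences were in Vcan, Crybb1, Gpr15, Ear10 and Cryba4. Vcan, the matrix proteoglycan versican of classical monocytes, was at 6.63, 5.94 and 7.14 in the monocytes, 1.15, 3.87 and 4.94 in the day 4 cells, 0.52, 0.61 and 0.56 in the marrow progenitors and 3.67, 3.72 and 5.01 in the ER-Hoxb8 progenitors. It was higher in monocytes than in marrow progenitors, but not in day 4 cells than in their progenitors, and the difference of differences was -6.82, or -7.03 without the doubted library. The others differed by -5.57, -5.46, -5.18 and -5.11, or -5.11, -5.84, -5.44 and -4.66 without it. Sh2d4a, Vcan and Gpr15 passed whichever library was left out. The other 7 no longer passed without marrow progenitors replicate 3 (Efr3b 8.12, Sdc4 9.15, Prss50 8.72, Tmem231 8.10, Crybb1 -5.70, Ear10 -5.16 and Cryba4 -5.30), and each was also lost without at least 1 other library, so that they rest on few values.

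Most lists had few such genes. In the classical monocyte list, 4 of 23 were negative and none positive, beside 0.692% and 1.43% of all genes (median -2.58, beside 0.08 over all genes), namely Vcan, Ms4a4c, Ms4a6c and Clec4e; without the doubted library 5 were negative and 1 positive, beside 1.58% and 3.19% (median -1.55). The same shares of all genes stand beside the lists that follow. Without marrow progenitors replicate 1 or 3, Ms4a4c (-4.151 and -4.365) and Ms4a6c (-2.599 and -2.516) no longer passed, with differences about as large. In the macrophage maturation list none was positive and 1 negative, Tfec, but without that library 6 were positive (median 0.77 with it and 1.22 without). Among erythroid genes 8 of 14 were positive (median 4.60; 10 and 4.39 without it), where marrow progenitors hold many such transcripts, such as Hba-a1 at 8.97, 10.43 and 10.58. No gene of the lysosome list was positive in either fit, and Asah1 was negative with all libraries but not without the doubted one. The mitotic list had a median of 1.38 and no call, or 1.76 without the doubted library. It rested on ER-Hoxb8 progenitors replicate 1, without which it was 0.02. The DNA replication list had a median of 1.33 and no call, 1.25 without the doubted library and 0.75 without replicate 1. Without ER-Hoxb8 progenitors replicate 3 the medians were 2.16 and 2.06, and 7 DNA replication genes passed. In that fit 570 of all genes passed (280 positive and 290 negative), against 257 with all libraries, so the shares above do not apply to it.

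Deposited values are not whole counts, since 41.8% to 49.4% of estimated counts lay within 0.1 of a whole number, so no test on counts was run. Bounds and floors cover counting error only, and each group has 3 libraries.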

How the data were processed

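The values, log2 CPM of bulk RNA, are as deposited by the authors and were used unchanged. The submitters' notes name FastQC, kallisto 0.46.0 with build GRCm39, and edgeR and limma for TMM scaling and testing. A prior count is visible in the shared lowest value. Groups were compared in limma 3.58.1 (R 4.3.3; lmFit, eBayes with trend, two-sided, Benjamini-Hochberg) on the 6 libraries, over genes with CPM above 1 in at least 3. Calls needed a log2 fold change of 2 or more in size with the adjusted p under 0.05. The difference between stages was fitted in the same way on 12 libraries. Progenitors and day 4 cells of the same number were also treated as pairs, because their deviations from the group means correlated at 0.226, 0.372 and 0.426 and the study made several lines; the labels do not name the line. Each of these values depends on the library that goes against its label, since it is part of the group mean, and no value without it is given. Exact permutation tests were used for single values. Alternatives covered filters, scaling, pseudocount, weights, spread and libraries left out.

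The libraries and lists were chosen with earlier results on these data known. Named genes were the 10 strongest in each direction with no overlap and a mean of at least 5 in the higher group, the 5 strongest in each direction between stages, and members of the lists. Lists were described by counts of calls and a median, and some members counted in them are not reported by name here. Values without a gene name took at most 0.0226% of a library. Promoters came from RefSeq (GRCm38.p6). Leaving out the genes of other cells was an alternative added after the values were seen.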

Additional observations from a re-analysis of the deposited data

Results flagged for a closer look

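Some genes named in the text differed between line and marrow by another amount in progenitors than at the later stage, in the fit of 12 libraries. Each value is the log2 fold change of day 4 cells against monocytes minus that of ER-Hoxb8 progenitors against marrow progenitors, and the value after it leaves out ER-Hoxb8 progenitors replicate 2, whose data go against its label. The differences were 9.26 and 9.26 for Efr3b, 9.17 and 11.01 for Sdc4, 8.62 and 9.43 for Prss50, 8.02 and 9.22 for Tmem231, 7.43 and 7.43 for Sh2d4a, and 4.81 and 4.89 for Syngr1. All 6 moved towards the line. Towards marrow they were -6.82 and -7.03 for Vcan, -5.57 and -5.11 for Crybb1, -5.46 and -5.84 for Gpr15, -5.18 and -5.44 for Ear10, -5.11 and -4.66 for Cryba4, -4.32 and -3.89 for Ms4a4c, -3.86 and -3.63 for I830127L07Rik, and -2.58 and -2.05 for Ms4a6c. For Syngr1, Ms4a4c, I830127L07Rik and Ms4a6c the difference had the same direction at both stages and was larger at the later one (1.62 and 6.42 for Syngr1, -4.95 and -9.27 for Ms4a4c). For Vcan it turned, from 3.57 to -3.25, and for Sdc4 from -4.38 to 4.79. It also turned for Efr3b (-3.12 to 6.14), Prss50 (-5.25 to 3.37), Tmem231 (-5.73 to 2.29) and Gpr15 (1.73 to -3.73). For Crybb1 (0.826 to -4.74), Ear10 (0.113 to -5.07) and Cryba4 (0.0573 to -5.05) it turned from a small value. For Sh2d4a it kept its direction and was smaller at the later stage (-9.95 and -2.52). All 14 passed with and without the doubted library. Without marrow progenitors replicate 3 only Sh2d4a, Vcan and Gpr15 still passed, and with a pseudocount of 1 Efr3b (2.97, adjusted p = 0.0543), Crybb1 (-1.63) and Ear10 (-1.60) did not. Syngr1 and Ms4a4c were also lost without marrow progenitors replicate 1. I830127L07Rik and Ms4a6c were also lost without marrow progenitors 1 or 2, any monocyte library, or day 4 cells 1 or 3. Ms4a6c was lost without day 4 cells 2 as well. The cause was not tested.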

How the results depend on the processing

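With other settings the 1308 calls became 860 (508 lower) for genes with a mean CPM above 5 and 2171 (990 higher) at a log2 limit of 1, both of which follow from the change of limit. The count ranged from 671 without monocytes 3 to 1281 without day 4 cells 3 when the filter was applied again, and the lower genes from 272 without monocytes 2 to 907 without day 4 cells 2. With the replicate block, 1311 genes were called (451 higher and 860 lower) and 344 between stages (225 positive and 119 negative). Between monocytes and day 4 cells the numbers do not pair the samples, as the correlations between the deviations of the groups were 0.0692, -0.0148 and 0.0357. Between ER-Hoxb8 progenitors and day 4 cells they were taken as pairs, from correlations that include the doubted library. A block for these lines alone, added after the values were seen, gave 411 genes between stages (266 positive and 145 negative). It changed no call of the 10 genes named first for the difference between stages.

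Between stages the 257 calls became 159 (93 positive) with a mean CPM above 5, and 386 with a pseudocount of 1 (135 negative), and quantile normalization gave 145 negative ones. Single libraries left out gave 51 (33 positive, 18 negative, without marrow progenitors 3) to 575 (385 positive, without ER-Hoxb8 progenitors 2), with up to 290 negative without ER-Hoxb8 progenitors 3; the cause was not tested.

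Medians of several lists of other cells shrank with a pseudocount of 1, which raises low values: -1.95 for the B lineage, -2.81 for T and NK cells, -5.43 for basophils, -2.62 for eosinophils, -3.62 for erythroid cells, -1.19 for dendritic cells and -2.85 for stem cells. Quantile normalization gave -3.76 for the B lineage, -2.10 for dendritic cells and 0.78 for the Hox B cluster. The median of the transcription factors, -0.08, turned to 0.0503 with quantile normalization. With single libraries left out it ran from -0.29 (monocytes 1) to 0.14 (monocytes 3), turning sign (0.0799 without monocytes 2); that of toll-like receptors from -0.0771 (day 4 cells 2) to 0.25 (day 4 cells 1), and that of the integrated stress response from -0.13 (day 4 cells 3) to 0.56 (day 4 cells 1), both also turning sign. Other ranges were 1.03 to 1.91 for macrophage identity, -6.14 to -5.43 for T and NK cells, -3.36 to -1.90 for dendritic cells and -0.86 to -0.38 for MHC class I. They were -0.94 to -0.13 for DNA replication, -0.89 to -0.38 for mitosis, -1.30 to -0.47 for homing receptors, -1.22 to -0.18 for inflammatory cytokines and -0.80 to -0.13 for cytokine receptors. Classical monocyte genes ran from -4.01 (without day 4 cells 2) to -2.17 (without day 4 cells 1), interferon-stimulated genes from -0.49 (monocytes 3) to -0.19 (monocytes 2), chemokines from 0.89 (monocytes 1) to 1.74 (monocytes 2), immediate early genes from -1.70 (monocytes 1) to -0.46 (monocytes 2), Y-linked genes from -4.23 (monocytes 2) to -1.90 (monocytes 1) and the Hox B cluster, with 1 gene, from -0.34 (monocytes 2) to 0.28 (day 4 cells 3), turning sign. The mitochondrial genome ran from -0.40 (without day 4 cells 2) to 0.21 (without day 4 cells 1), turning sign. Of 66 called genes named without a log2 fold change, 38 were lost in at least 1 setting, 12 of them with a pseudocount of 1 and 13 with no filter on low values.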
